A study of Mus musculus with 6 samples.

Results

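The genes described here make up the degradative machinery of the lysosome: 52 genes chosen by name, which code for transcription factors of the MiT/TFE family, lysosomal hydrolases, lysosomal membrane proteins and subunits of the vacuolar proton pump. All 52 were found among the 34745 genes of the count table, and all 52 passed the filter on low counts that left 12537 genes for testing. The study asked how loss of mTOR alters monocytic myeloid-derived suppressor cells (M-MDSCs), immature myeloid cells that restrain T cells. RNA was sequenced from M-MDSCs of wild-type (WT) mice and of Lyz-mTOR mice, with 3 libraries for each genotype and 6 in all. The strain of every library was C57BL/6, and the mice's age was not given in the sources used here. Lyz-mTOR mice carry floxed mTOR alleles and Cre recombinase driven by the Lyz promoter, which deletes the allele in cells of the myeloid lineage and leaves it intact elsewhere. WT mice were described without Cre or floxed alleles, so Cre and the deletion cannot be told apart. Bone marrow cells of both genotypes were cultured with GM-CSF and IL-6 before sorting, and no other treatment separated the groups.

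Lysosomes break down proteins, glycans and lipids that reach them by endocytosis, phagocytosis and autophagy. Their hydrolases work in an acidic lumen, and the acid is made by the V-ATPase, a proton pump whose V1 sector burns ATP in the cytosol and whose V0 sector carries protons across the membrane. Transcription of many of these genes is driven by TFEB and TFE3, which bind an E-box palindrome at promoters. mTORC1 sits on the lysosomal surface and phosphorylates both factors, which keeps them in the cytosol, so mTOR is a known brake on this gene programme. Phosphorylation and location of a protein are not visible in RNA counts.

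The binding site of these factors holds the E-box CACGTG, and its longer forms are TCACGTGA and the core GTCACGTG (CACGTGAC on the other strand). Each form was searched on both strands in the RefSeq promoters of GRCm38.p6, from 250 bases before to 50 after a start site, and both longer forms contain the E-box. RefSeq promoters were given for 42 of the 52 genes. An E-box stood in a promoter of 13 of these 42 genes (31.0%), against 8.09% of all 27025 genes with a promoter. TCACGTGA was found for 7 of the 42 (16.7%, against 1.12% of all genes), and the core for 9 (21.4%, against 2.55%). The following stretches of 100 bases before a start site are shown because they hold the E-box, in capitals, of the 2 genes with the smallest adjusted p-values in the comparison (Glb1 and Lgmn) and of 3 further hydrolase genes whose promoters hold the longer TCACGTGA (Ctsd, Ctsa and Gla).
Glb1 (chr9:114400978-114401077, plus strand): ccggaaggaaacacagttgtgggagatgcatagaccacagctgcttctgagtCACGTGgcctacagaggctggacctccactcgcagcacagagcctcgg
Lgmn (chr12:102439093-102439192, minus strand): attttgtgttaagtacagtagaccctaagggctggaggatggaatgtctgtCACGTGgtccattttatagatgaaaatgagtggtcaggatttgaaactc
Ctsd (chr7:142387873-142387972, minus strand): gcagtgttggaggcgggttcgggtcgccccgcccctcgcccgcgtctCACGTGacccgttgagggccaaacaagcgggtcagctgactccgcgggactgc
Ctsa (chr2:164833673-164833772, plus strand): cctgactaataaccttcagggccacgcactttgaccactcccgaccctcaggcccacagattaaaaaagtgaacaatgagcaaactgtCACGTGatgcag
Gla (chrX:134601147-134601246, minus strand): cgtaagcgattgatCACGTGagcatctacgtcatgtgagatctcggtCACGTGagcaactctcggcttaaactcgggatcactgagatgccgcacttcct
The E-box began 48 bases before the start of Glb1, 49 before a start of Lgmn, 98 before that of Ctsd, 12 before a start of Ctsa and 194 before that of Gla. Ctsd and Gla each hold a further E-box before these, and Ctsa holds another just after its start. Lgmn and Ctsa each have another promoter in the table, without an E-box. No promoter was given for Ctsb, Ctse, Ctsh, Asah1, Npc1, Atp6v0d2, Atp6v1b2, Atp6v1c1, Atp6v1g1 and Atp6v1h. A match describes letters in a window and does not show that a factor binds there.

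Total counts ranged from 12317507 to 12903191 in the libraries labelled mTOR-/- and from 14066578 to 14768126 in the WT libraries. Mtor, the targeted gene, was counted 883, 983 and 908 times in the libraries labelled mTOR-/- and 980, 875 and 929 times in the WT libraries (log2 fold change 0.15, edgeR adjusted p = 0.442). These counts span the whole gene and do not separate the groups, so the labels could not be checked by them, and every direction below rests on the labels alone. The study reported depletion of mTOR in MDSCs and genotyped its mice by PCR. Whether those checks covered the mice behind these libraries was not given in the sources used here. The library labelled mTOR-/- replicate 3 stood apart: its log2 CPM correlated with the other libraries of its group at r = 0.955 and 0.952, while those correlated with each other at 0.973. Replicates 1 and 2 labelled mTOR-/- correlated with the WT libraries at 0.957 to 0.966, closer than with replicate 3 of their own group. Replicate 3 correlated with the WT libraries at 0.934 to 0.941. Defining markers of the sorted cells were present, with Itgam (CD11b) at 646 to 1027 CPM over the 6 libraries in the more abundant of its 2 rows, and Ly6c2 at 72.6 to 104 CPM in the libraries labelled mTOR-/- and 115 to 226 CPM in WT. Ly6g, which marks granulocytic cells, lay between 10.7 and 15.1 CPM in the libraries labelled mTOR-/- and between 0.852 and 5.05 CPM in WT.

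Transcripts of the 52 genes took up 3.96%, 3.50% and 3.55% of all counts in the libraries labelled mTOR-/- 1, 2 and 3, and 4.27%, 4.48% and 4.46% in the WT libraries 1, 2 and 3. The groups did not overlap, and the share was lower in the libraries labelled mTOR-/-. Psap, Gpnmb and Ctsd alone accounted for 2.23% to 2.55% of counts in the libraries labelled mTOR-/- and for 2.81% to 2.91% in WT. The other 49 genes made up 1.23% to 1.41% against 1.46% to 1.57%, again without overlap. In bulk RNA, fewer cells of a type and less RNA per cell cannot be told apart.

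Gene by gene, 6 of the 52 fell in the libraries labelled mTOR-/- at an adjusted p under 0.05 and none rose (edgeR quasi-likelihood F test, Benjamini-Hochberg over 12537 genes). They were Glb1, Lgmn, Ctsb, Gpnmb, Cd63 and Atp6v1e1. Read as a share, 11.5% of the 52 were called lower, where the background over all tested genes was 1.87% lower and 2.18% higher (4.04% in all). The 52 were chosen with earlier results of these data known, so this contrast is a description and not a test. No gene of the 52 passed the study's joint threshold, which asks for at least a 2-fold difference as well, and which 1.69% of all tested genes did, and none passed it by DESeq2 or by limma on FPKM. At an unadjusted p under 0.05, 25 of the 52 were lower and 1 was higher, where 9.52% and 11.7% of all tested genes were. In 26 of the 52 every library labelled mTOR-/- lay under every WT library, and in 2 (Man2b1 and Atp6v0a1) it lay above, beside 13.9% and 14.5% of all tested genes. By their means alone, 39 genes (75.0%) were lower and 13 higher, where 49.4% of all tested genes were lower.

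These differences were modest in size. The median log2 fold change was -0.26 over the 52 genes and 0.0049 over all tested genes, and 46 of the 52 changed by less than 0.5 on the log2 scale. The standard errors lay between 0.081 and 0.239. These are well counted genes, with a median of 193 CPM against 29.9 CPM for all tested genes, 44 of them with at least 1000 counts in every library and none under 113. The tested background is therefore less deeply counted than the 52.

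**Figure D1:**
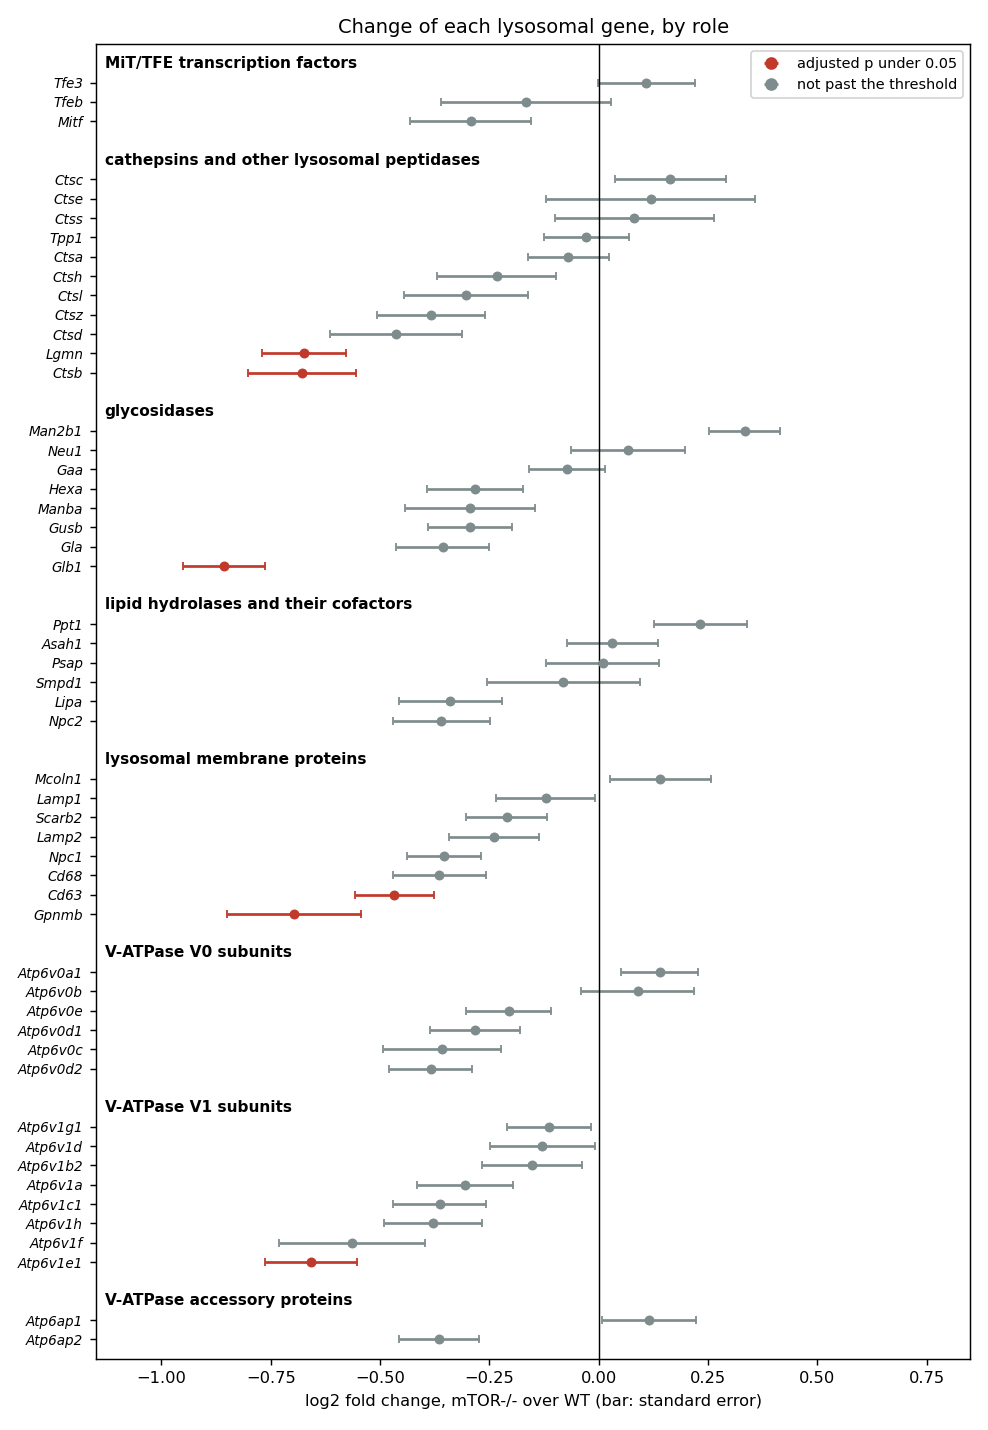
Each point is the log2 fold change of 1 of the 52 genes (x axis, mTOR-/- over WT, from edgeR with 3 libraries a group), with its standard error as a bar, sorted within 8 groups of role. The 6 genes in red passed an adjusted p of 0.05 and all lie left of 0, between -0.86 and -0.47, while all 8 V1 subunits lie left of 0.

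**Figure D2:**
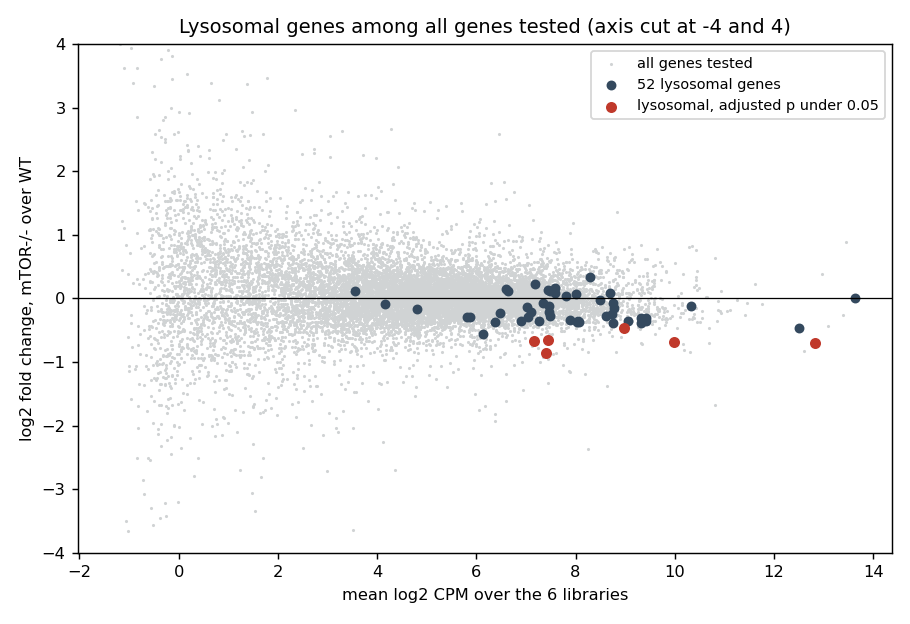
The log2 fold change (y axis, cut at -4 and 4) of every tested gene is plotted in grey against its mean log2 CPM over the 6 libraries (x axis), with the 52 lysosomal genes in colour. Most lysosomal genes sit right of the bulk of tested genes and a little below 0, and their fold changes stay between -0.86 and 0.33.

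The library labelled mTOR-/- replicate 3 had the lowest value of its group for 29 of the 52 genes and the highest for 9. Without it, 7 genes were called, all lower, comprising the same 6 and Npc1 (3.63% of all tested genes were called), and the median log2 fold change of the 52 was -0.18. The median log2 ratio to the WT mean over the 52 genes was -0.09, -0.27 and -0.40 in the libraries labelled mTOR-/- 1, 2 and 3. It was -0.06, 0.03 and 0.04 in the WT libraries 1, 2 and 3, and between 0.0016 and 0.0087 over all tested genes in every library. Replicate 1 of the libraries labelled mTOR-/- thus lay close to WT replicate 1, while replicates 2 and 3 lay well under every WT library. Among the fits that left out a library, those without a WT library moved the count of called genes most: 3 remained without WT replicate 1, 2 without WT replicate 2 and 2 without WT replicate 3, where 1.51%, 1.36% and 1.35% of all tested genes were called. DESeq2's Wald test called 18 of the 52 (17 lower, 1 higher), where it called 9.12% of all tested genes.

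**Figure D3:**
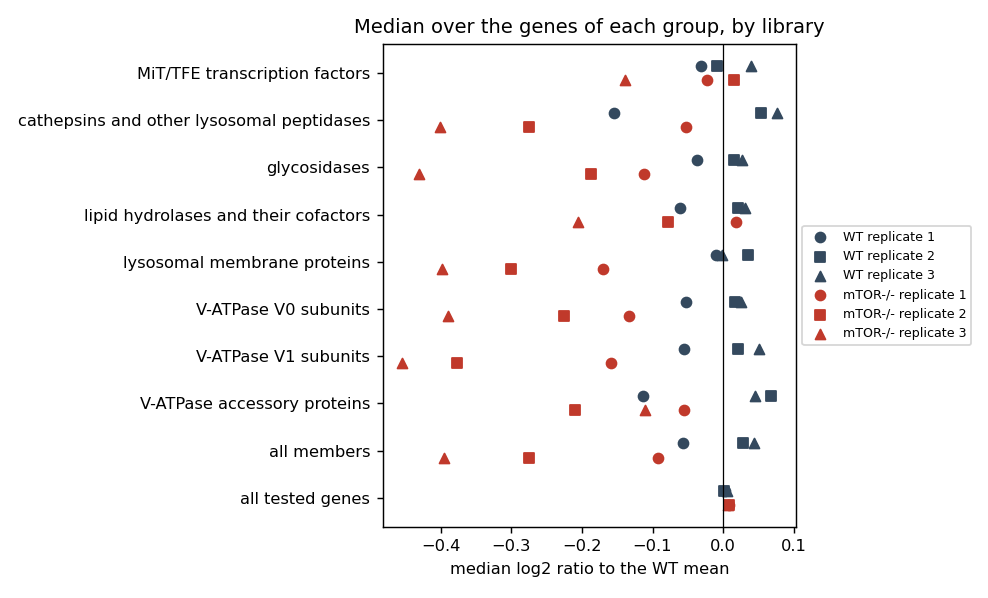
For each role group, each symbol is the median log2 ratio of its genes to the WT mean (x axis) in 1 library, with WT in blue, mTOR-/- in red and the replicate number given by the shape. Over all 52 genes the libraries labelled mTOR-/- sit at -0.09, -0.27 and -0.40, and over all tested genes every library sits near 0.

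Markers of other cells moved between the groups too. The summed CPM of 7 mast cell and basophil markers was 420 to 474 in the libraries labelled mTOR-/- and 1239 to 1307 in WT, with 4 of the 7 called lower (Cpa3, Mcpt8, Kit and Gata2) and none called higher. The 6 osteoclast markers summed to 100.2 to 155 CPM against 233 to 244 CPM, where Itgb3 was called lower, Dcstamp was called higher and Calcr was at 0 in every library. Without Itgb3 these markers summed to 70.9 to 78.1 CPM against 66.4 to 70.9 CPM, so the lower sum came from Itgb3 alone. The 8 macrophage markers summed to 535 to 657 CPM against 662 to 745 CPM, with none called and Marco at 0 throughout. Adgre1 made up most of the macrophage sum, at 532, 510 and 401 CPM against 563, 642 and 636 CPM. Vcam1, the next most abundant, lay higher without overlap, at 116, 122 and 132 CPM against 94.7, 69.3 and 99.5 CPM. Of 7 monocyte markers 4 were called higher (Csf1r, Cd14, F13a1 and Fn1) and 1 lower (Ly6c2), with sums of 2477 to 2774 CPM against 1944 to 2216 CPM. Fn1 had the largest difference of these in CPM, at 829, 692 and 688 CPM against 218, 358 and 288 CPM. Neutrophil markers summed to 1766 to 2177 CPM against 1567 to 1898 CPM (1 of 8 called higher, 2 lower) and dendritic cell markers to 193 to 263 CPM against 66.8 to 152 CPM (1 of 7 called higher, none lower, Siglech at 0). Mmp8, not called, made up most of the neutrophil sum, at 1796, 1502 and 1393 CPM against 1077, 1319 and 1313 CPM. Ngp, the next most abundant, was called lower, at 305, 286 and 301 CPM against 437, 370 and 510 CPM. Ltf was called lower too, and Ly6g higher. Of the dendritic cell markers, Itgax made up most of the sum, at 196, 128 and 192 CPM against 51.9, 117 and 103 CPM. Itgax was not called. Ccr7, the next most abundant, was called higher, at 58.2, 57.5 and 60.1 CPM against 13.6, 29.4 and 30.6 CPM. Flt3 and Zbtb46 overlapped between the groups (log2 fold changes -0.46 and 0.81). B cell markers stayed under 6 CPM in sum in every library, and erythroid markers did too. The 4 markers of T and NK cells summed to between 0 and 0.569 CPM over the 6 libraries, with Cd3e and Ncr1 at 0 in every library. Whether a shift in the makeup of the sorted cells plays a part in the lysosomal values was not tested.

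Transcription factors of the MiT/TFE family came first in the order of roles, and none of the 3 passed the test by edgeR, by DESeq2 or at an unadjusted p under 0.05. Tfeb, the best known driver of lysosomal genes, was at 22.1, 30.7 and 26.5 CPM in the libraries labelled mTOR-/- and at 33.8, 22.5 and 32.8 CPM in WT. The groups overlapped over nearly their whole range (log2 fold change -0.17, 95% interval -0.60 to 0.27, edgeR adjusted p = 0.668). Tfe3, its close relative, was at 110, 96.9 and 104 CPM against 88.8, 108 and 91.4 CPM (0.11, interval -0.14 to 0.36, adjusted p = 0.609 by edgeR). Its highest WT library lay within the range of the libraries labelled mTOR-/-. Mitf, the family member known for pigment cells, mast cells and osteoclasts, gave 60.9, 43.7 and 47.0 CPM against 60.6, 61.5 and 63.6 CPM. Replicates 2 and 3 labelled mTOR-/- were under all WT libraries and replicate 1 was level with them (-0.29, interval -0.60 to 0.02, edgeR adjusted p = 0.263).

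Among the 11 cathepsins and other lysosomal peptidases, 8 were lower and 3 higher by their means, with a median log2 fold change of -0.23, and 2 passed the test. Ctsb, which codes for cathepsin B, a cysteine protease of broad specificity (ENSMUSG00000021939, mm10 chr14:63122462-63145919), was at 922, 823 and 681 CPM in the libraries labelled mTOR-/- and at 1227, 1296 and 1361 CPM in WT. All 3 libraries labelled mTOR-/- were under all WT libraries, with replicate 3 the lowest. Its mean was 808 ± 121 CPM (SD, n = 3) against 1295 ± 67.2 CPM, a log2 fold change of -0.68 with a standard error of 0.123 (edgeR adjusted p = 0.0183). Exons of Ctsb overlap those of Fdft1 on the opposite strand over 774 of 6051 bases. Lgmn codes for legumain, which cleaves after asparagine and matures several cathepsins (ENSMUSG00000021190, mm10 chr12:102394084-102439813). Lgmn had 124, 109 and 110 CPM against 170, 185 and 191 CPM, and the groups were far apart relative to their spread. The log2 fold change of Lgmn was -0.67 with a standard error of 0.096 (edgeR adjusted p = 0.00628).

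None of the other 9 peptidases passed the test by edgeR, where 2 were lower at an unadjusted p under 0.05, and DESeq2 called both of these, Ctsd and Ctsz, lower (adjusted p = 0.0151 and 0.0446). Ctsd, the aspartic protease cathepsin D and the most abundant peptidase transcript of the set, was at 5549, 5344 and 3931 CPM against 6449, 6953 and 7041 CPM. Every library labelled mTOR-/- was under every WT library, but replicate 3 stood well below the other two of its group (log2 fold change -0.46, standard error 0.151, edgeR adjusted p = 0.125). Without that library the log2 fold change of Ctsd was -0.33. Ctsd shares 808 of 2351 exon bases with Gm49369 on the same strand, so its counts may be split. Ctsz, a carboxypeptidase, did not overlap between groups either (-0.38, edgeR adjusted p = 0.123). Ctsc, which activates granule serine proteases, was at the upper end of the group, with 229, 199 and 183 CPM against 154, 201 and 191 CPM. These values overlapped (0.16, edgeR adjusted p = 0.492), as did those of Ctss, Ctse, Ctsh, Ctsl, Ctsa and Tpp1, whose log2 fold changes lay between -0.30 and 0.12.

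Of 8 glycosidases, which remove sugars from glycoproteins and glycolipids, 6 were lower and 2 higher, with a median log2 fold change of -0.29. Glb1 codes for the acid beta-galactosidase that splits galactose from gangliosides and whose activity is a widely used stain for senescent cells (ENSMUSG00000045594, mm10 chr9:114401076-114474376). It had 133, 132 and 114 CPM in the libraries labelled mTOR-/- and 228, 224 and 236 CPM in WT. No value came near the other group, and this was the largest change among the 52 genes. Its mean of 127 ± 10.8 CPM against 229 ± 6.31 CPM (SD, n = 3) gave a log2 fold change of -0.86 with a standard error of 0.0941 (edgeR adjusted p = 0.00183), or 44.8% less. Glb1 shares 165 of 3008 exon bases with Tmppe on the same strand.

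Man2b1, the lysosomal alpha-mannosidase, went the other way, with 342, 353 and 359 CPM against 272, 278 and 287 CPM. All libraries labelled mTOR-/- were above all WT libraries, yet the adjusted p missed the threshold (log2 fold change 0.33, standard error 0.081, edgeR adjusted p = 0.0551). Man2b1 was called higher with library totals alone, with DESeq2 and with limma on FPKM. Hexa, the alpha subunit of beta-hexosaminidase and the most abundant glycosidase transcript, was at 407, 342 and 315 CPM against 413, 453 and 428 CPM. The groups did not overlap by a narrow margin (-0.28, edgeR adjusted p = 0.184). Gla, Gusb and Manba were likewise lower without overlap (-0.36 to -0.29, edgeR adjusted p from 0.0961 to 0.293), whereas Gaa and Neu1 overlapped. DESeq2 called Gla lower.

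**Figure D4:**
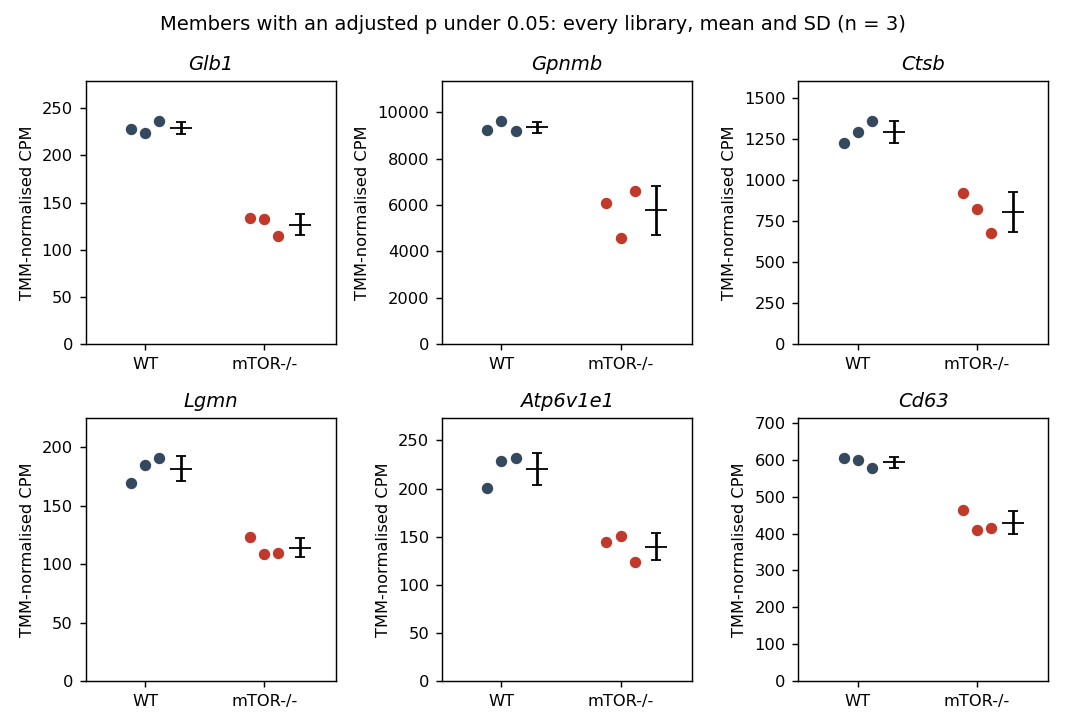
TMM-normalised CPM (y axis, from 0) of the 6 genes with an adjusted p under 0.05, with 1 point a library, the mean as a horizontal line and the SD as a bar (3 libraries a group). In every panel the 3 mTOR-/- libraries lie under the 3 WT libraries, and the gap is widest relative to the spread in Glb1, at 114 to 133 CPM against 224 to 236 CPM.

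The 6 genes of lipid hydrolases and their cofactors were evenly divided, 3 lower and 3 higher, with a median log2 fold change of -0.04. None was called by edgeR with all 6 libraries, where 2 were lower at an unadjusted p under 0.05, and DESeq2 called 1 lower (Npc2). Psap, the precursor of the saposins that present sphingolipids to their hydrolases, was the gene with the most counts of all genes in every WT library. It was at 13957, 12187 and 12317 CPM in the libraries labelled mTOR-/- and at 12350, 12739 and 13132 CPM in WT. The WT range lay inside the other, and the log2 fold change was 0.01 (95% interval -0.28 to 0.30, edgeR adjusted p = 0.978). Npc2, which hands cholesterol from the lumen to NPC1, had 512, 485 and 408 CPM against 554, 607 and 643 CPM. Its groups did not overlap (-0.36, edgeR adjusted p = 0.108), and neither did those of Lipa, the acid lipase for cholesteryl esters (-0.34, edgeR adjusted p = 0.147). Lipa was called lower without replicate 1 labelled mTOR-/- (edgeR adjusted p = 0.0482) and in no other alternative. Ppt1, a thioesterase that removes palmitate from proteins, was at 156, 142 and 176 CPM against 127, 145 and 132 CPM, with overlap (0.23, edgeR adjusted p = 0.245). Smpd1 and Asah1, the acid sphingomyelinase and acid ceramidase, differed by -0.08 and 0.03.

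Lysosomal membrane proteins were lower in 7 of 8 cases, with a median of -0.30, and 2 were called. Gpnmb codes for a glycoprotein of macrophage lysosomes and melanosomes (ENSMUSG00000029816, mm10 chr6:49036546-49070929) and had 6102, 4602 and 6605 CPM in the libraries labelled mTOR-/- and 9246, 9621 and 9194 CPM in WT. Replicate 2 was the lowest library, not replicate 3, and the groups were clearly apart. The means were 5770 ± 1042 and 9354 ± 233 CPM (SD, n = 3), a log2 fold change of -0.70 with a standard error of 0.153 (edgeR adjusted p = 0.0383). Cd63, a tetraspanin of late endosomes, lysosomes and granules (ENSMUSG00000025351, mm10 chr10:128908919-128912816), was at 465, 409 and 415 CPM against 605, 599 and 577 CPM. The WT values lay close together and all above the highest library labelled mTOR-/- (-0.47, standard error 0.0905, edgeR adjusted p = 0.0241). Cd63 is also a granule protein of mast cells and basophils, whose markers were lower in the same libraries, and their part in its value was not tested.

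Npc1, the membrane protein that exports cholesterol from lysosomes, was at 620, 602 and 587 CPM against 790, 770 and 753 CPM. Both groups were tight and apart, and the adjusted p fell just short of the threshold (-0.35, standard error 0.085, edgeR adjusted p = 0.0525). Npc1 was called lower with DESeq2, with no filter on low counts, with limma on FPKM and without replicate 3 labelled mTOR-/-. Cd68, a glycoprotein of macrophage lysosomes, Lamp2 and Scarb2 also lay lower without overlap (-0.36, -0.24 and -0.21). DESeq2 called Cd68 lower. Lamp1, a major protein of the lysosomal membrane, overlapped (-0.12). Mcoln1, a calcium channel of the lysosomal membrane, gave 103, 88.7 and 115 CPM against 95.3, 95.5 and 87.5 CPM, which overlapped (0.14, edgeR adjusted p = 0.520).

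The 8 subunits of the V1 sector, where ATP is split, all had negative log2 fold changes, with a median of -0.33, and the 6 of the V0 sector had 4 negative and 2 positive, with a median of -0.24. Of these 14, Atp6v1e1 alone passed the test by edgeR, while DESeq2 called 4 subunits of V1 and 1 of V0 lower. It codes for the E subunit of the stalk that holds the sector in place (ENSMUSG00000019210, mm10 chr6:120794305-120822793) and was at 145, 150 and 124 CPM in the libraries labelled mTOR-/- and at 201, 228 and 232 CPM in WT. The groups were apart by more than the spread of either (log2 fold change -0.66, standard error 0.106, edgeR adjusted p = 0.0109). Atp6v1f, the small F subunit of the central rotor, showed a similar size but more spread, with 67.1, 65.0 and 42.8 CPM against 90.8, 78.6 and 89.2 CPM (-0.56, standard error 0.167, edgeR adjusted p = 0.0981). Atp6v1g1, the stalk subunit with the highest FPKM of the V1 sector, was nearest to 0, with 180, 150 and 176 CPM against 187, 186 and 176 CPM (-0.11, edgeR adjusted p = 0.535). Atp6v1a, which carries the catalytic sites, Atp6v1c1 and Atp6v1h were lower without overlap (-0.38 to -0.31), and Atp6v1b2 and Atp6v1d overlapped.

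In the V0 sector, Atp6v0d2, the d isoform associated with osteoclasts and macrophages, was at 420, 351 and 361 CPM against 489, 497 and 490 CPM. The WT libraries were nearly level and all above the others (-0.38, standard error 0.0959, edgeR adjusted p = 0.0598). Atp6v0d1, the ubiquitous d isoform, was lower as well without overlap (-0.28, edgeR adjusted p = 0.161). Atp6v0b, Atp6v0c and Atp6v0e, which form or border the proton-carrying ring, differed by 0.09, -0.36 and -0.21. Atp6v0a1, an isoform of the large membrane subunit a, stood above WT in all libraries by a small margin, with 180, 190 and 179 CPM against 176, 168 and 155 CPM (0.14, edgeR adjusted p = 0.399). The accessory proteins diverged: Atp6ap2, also known as the prorenin receptor, had 251, 220 and 218 CPM against 286, 296 and 305 CPM (-0.36, edgeR adjusted p = 0.0598). DESeq2 called Atp6ap2 lower. Atp6ap1, which helps to assemble the V0 sector, had 187, 172 and 199 CPM against 151, 188 and 177 CPM, with overlap (0.11, edgeR adjusted p = 0.576).

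How firmly a call held differed between the 6 genes. Glb1 and Lgmn were called in all 14 other fits, including all 6 that left out a library, with log2 fold changes of -0.90 to -0.79 and -0.74 to -0.64. Atp6v1e1 was called in 12 of the 14 and lost the call without WT replicate 2 and without WT replicate 3 (highest adjusted p = 0.0638, edgeR). Ctsb was called in 10, Cd63 in 9 and Gpnmb in 8, and all 3 lost the call whenever a WT library was left out. All 3 also lost it when the replicate number was fitted as a block. Cd63 and Gpnmb lost it with limma on FPKM, and Gpnmb without replicate 1 labelled mTOR-/- as well. The direction of these 6 genes stayed negative in all 14 fits.

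Levels compared per length, in the deposited FPKM, spanned 3 orders of magnitude among the 52 genes. Psap stood alone at the top with 3084 to 3488 FPKM over the 6 libraries. Ctsd followed with 1029 to 1793 FPKM and overlapped Gpnmb, at 622 to 1278 FPKM, over the 6 libraries. Next were Lamp1 (487 to 616 FPKM) and Cd63 (400 to 588 FPKM), which overlapped each other. Within the other roles, Hexa led the glycosidases at 171 to 241 FPKM, Atp6v0d2 the V0 sector at 129 to 180 FPKM, Atp6v1g1 the V1 sector at 134 to 165 FPKM and Atp6ap2 the accessory proteins at 80.5 to 109 FPKM. The lowest were Ctse, a cathepsin outside the classical lysosome, at 1.90 to 3.30 FPKM and Tfeb at 2.40 to 3.67 FPKM, which overlapped. Tfe3 and Mitf lay just above, at 4.30 to 5.31 and 4.35 to 6.19 FPKM.

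**Figure D5:**
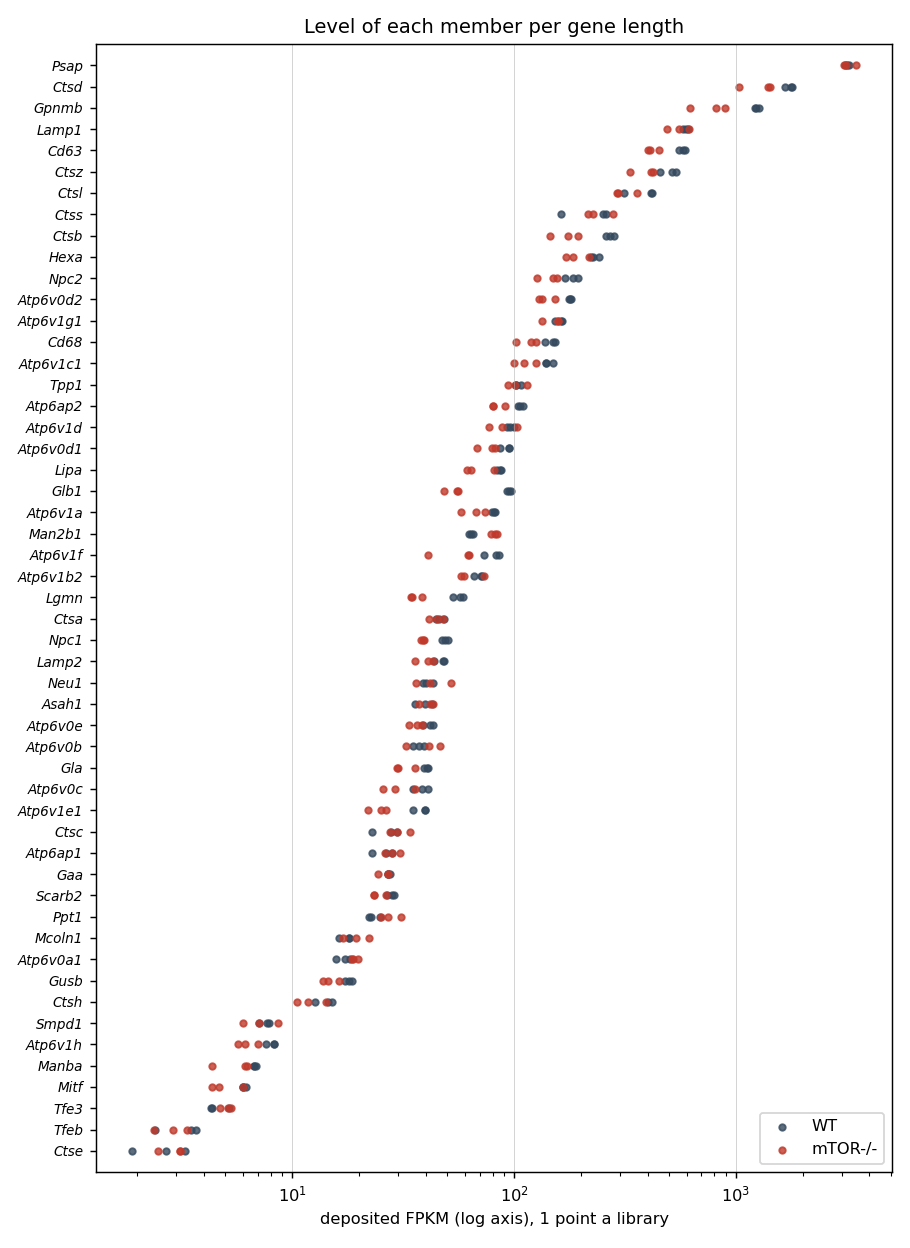
Deposited FPKM (x axis, log scale) of the 52 genes, 1 point a library, with WT in blue and mTOR-/- in red, ordered by the mean over the 6 libraries. Psap is on top at 3084 to 3488 FPKM with its groups mixed, and in rows such as Gpnmb, Ctsb and Glb1 the red points lie left of the blue ones.

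The medians of genes with and without an E-box lay close together, and their difference was not tested. The median log2 fold change was -0.28 over the 13 genes with an E-box, of which 11 were lower and 2 called, and -0.24 over the 29 genes with a promoter but no E-box, of which 20 were lower and 3 called. Of the 9 genes with the core GTCACGTG, 7 were lower and 2, Glb1 and Lgmn, were called. Ctsa, which holds both the core and TCACGTGA, differed by only -0.07. Mcoln1 and Atp6v0b, also with the core, differed by 0.14 and 0.09.

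Other genes of the pathway behaved less uniformly. Of 94 further lysosomal genes 90 were tested, and 5 rose and 2 fell, or 5.56% and 2.22% against the background of 2.18% and 1.87% (edgeR adjusted p under 0.05). Their median log2 fold change was -0.02. The count was 3 without replicate 1 labelled mTOR-/-, 4 without WT replicate 1, 3 without WT replicate 2 and 3 without WT replicate 3. These fits called 2.24%, 1.51%, 1.36% and 1.35% of all tested genes.

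Naaa, an acid amidase for N-acylethanolamines, rose to 141, 121 and 132 CPM from 74.9, 82.9 and 84.9 CPM (log2 fold change 0.70, standard error 0.103, edgeR adjusted p = 0.00692). Slc15a3, a lysosomal peptide and histidine transporter, rose to 37.0, 35.5 and 32.5 CPM from 11.01, 19.6 and 21.1 CPM (1.02, edgeR adjusted p = 0.0399), although its exons share 1541 bases with Tmem132a on the opposite strand. Slc15a3 lost its call in each of the 6 fits that left out a library, Atp6v0e2 without replicate 1 labelled mTOR-/-, and Naaa in none. Atp6v0e2, an isoform of the small e subunit, was counted 30, 21 and 31 times in the libraries labelled mTOR-/- and 0 times in every WT library. Against 3 counts a library, the limit that a count of 0 allows, Atp6v0e2 was at least 10.2-fold higher, with an edgeR adjusted p of 0.0110, at a level under 1 FPKM.

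Inhibitors of cysteine cathepsins moved in both directions. Cst7, or cystatin F, which is targeted to lysosomes of immune cells, fell to 34.9, 40.0 and 25.98 CPM from 78.3, 68.3 and 72.4 CPM (-1.12, standard error 0.161, edgeR adjusted p = 0.00642). The cytosolic stefins Stfa3 and BC100530 rose by 1.06 and 0.79 (edgeR adjusted p = 0.0132 and 0.0157). Both belong to a cluster of nearly identical genes, so the split of reads among its members is uncertain. Both lost the call without WT replicate 2 and without WT replicate 3, as did BC100530 without WT replicate 1 and Stfa3 without replicate 1 labelled mTOR-/-. Cst7 kept its call in all 14 alternatives. Laptm4b, a lysosomal membrane protein, fell to 10.9, 15.7 and 10.6 CPM from 22.6, 21.2 and 22.5 CPM (-0.83, standard error 0.188, edgeR adjusted p = 0.0421). Laptm4b kept its call in 8 of the 14 alternatives. It lost the call in each fit that left out a WT library, without replicate 1 or 3 labelled mTOR-/- and with the replicate block.

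None of the 10 further genes that regulate the MiT/TFE factors or belong to their family passed the test by edgeR. At an unadjusted p under 0.05, 1 was higher and 1 lower, close to the 11.7% and 9.52% of all tested genes. The smallest p belonged to Zkscan3, a repressor of lysosomal and autophagy genes, at 160.5, 162 and 204 CPM against 106, 119 and 46.0 CPM (0.96, edgeR adjusted p = 0.103). DESeq2 called none of the 10 either, and the fit with no filter on low counts called Zkscan3. The groups of Zkscan3 did not overlap, and WT replicate 3 lay far under the other WT libraries.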

How the data were processed

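The comparison used 3 libraries of WT and 3 of mTOR-/- M-MDSCs, grouped by their labels. The authors deposited whole-number counts per gene and FPKM values. The methods name Bowtie2, mm10 and HTSeq, whereas the submitters' processing notes list HISAT2 2.0.4, StringTie 1.3.0, GRCm38.p4 and mm9. The counter's strand setting and how FPKM was computed were not given in the sources used here, so overlapping genes may share reads. Of 36 per-sample columns 24 were not used, since other tables repeat the same values beside the authors' own comparison of the groups (fold changes, p-values and q-values).

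Counts were analysed with edgeR 4.0.16 and limma 3.58.1 in R 4.3.3. Filtering by filterByExpr (minimum count 10, minimum total 15) kept 12537 of 34745 genes, and TMM factors lay between 0.986 and 1.01. Groups were compared by the quasi-likelihood F test without a block, with Benjamini-Hochberg adjustment over all tested genes. The biological coefficient of variation was 19.0%. CPM values are TMM-normalised, and FPKM served to compare levels between genes. Intervals of log2 fold changes are 95% intervals from the same fit. The method was tested on simulated data. Nothing states that the libraries came from separate mice beyond n = 3, so p-values measure the spread between these libraries. With 3 against 3 libraries, exact permutation could reach no p under 0.1.

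The 52 genes and the gene lists were chosen with earlier results of these data known. All 52 could be named, with every library's value for called genes, the MiT/TFE factors, and the highest and lowest fold change and highest FPKM of each role. Other lysosomal genes were named if called, or for the smallest p where a list had none. Gene positions are those of the deposited table. Of the 52 genes, 37 had the same start and end in GENCODE M21, which gave exon overlaps.

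Alternatives were RLE, upper-quartile and no scaling factors, DESeq2 1.42.0, other filters, the replicate block, each library left out and, chosen after seeing the data, limma on log2(FPKM + 1).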

Additional observations from a re-analysis of the deposited data

How the results depend on the processing

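The absence of a 2-fold change held in all alternatives. Of the 52 genes, 6 were called; the count was 6 to 7 with RLE, upper-quartile or no scaling factors, 8 with no filter on low counts, 6 with at least 10 counts in every library and 18 with DESeq2's Wald test. Limma on FPKM, chosen after seeing the data, called 5 lower and 1 higher and shared 4 of the 6. It called 3.67% of all tested genes. Leaving out a library gave 2 to 7, where 1.35% to 4% of all tested genes were called. The fits without a WT library gave 2 or 3, where 1.35% to 1.51% were. The cause was not tested. No shared deviation of same-numbered libraries was seen, with correlations of -0.076, -0.025 and -0.061. With 3 libraries a group, these values cannot show whether the libraries were paired. The replicate block called 3 of the 52 and 279 of all tested genes (2.23%). Among the other lysosomal genes 7 were called, 12 by DESeq2, 5 with the replicate block, and 3 to 7 without a library. The shares of all tested genes called were 4.04%, 9.12%, 2.23% and 1.35% to 4% in the same order. The median log2 fold change of the MiT/TFE factors (-0.17) lay between -0.30 and -0.056 when a library was left out. TCACGTGA was found for 7 promoters, and the shorter E-box for 13. In these alternatives, signs reversed in 8 of the 52 genes, all with main values between -0.09 and 0.12. The Psap log2 fold change turned to -0.00462 with no filter on low counts. With a library left out the log2 fold changes ranged from -0.081 to 0.32 for Ctse, -0.12 to 0.20 for Ctss, -0.11 to 0.025 for Tpp1, -0.088 to 0.17 for Neu1, -0.23 to 0.037 for Smpd1, -0.046 to 0.097 for Asah1, -0.059 to 0.035 for Psap and -0.029 to 0.21 for Atp6v0b. Mtor was called in none of the alternatives.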

Other observations

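Several lysosomal genes outside the 52 had unadjusted p-values under 0.05 without passing adjustment, and the following were chosen after their values were seen. Igf2r, a receptor that carries newly made hydrolases to endosomes, differed by -0.56 on the log2 scale (edgeR adjusted p = 0.0542), and Scpep1, a serine carboxypeptidase, by -0.37 (edgeR adjusted p = 0.0687). Slc38a9, an arginine sensor of mTORC1 at the lysosome, differed by 0.63 (edgeR adjusted p = 0.0869). In each of these 3 genes the groups did not overlap.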
